A study of Mus musculus with 2 samples.

Results

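The C/EBP family, the CCAAT/enhancer-binding proteins, was followed in bone marrow neutrophils through 6 genes: Cebpa, Cebpb, Cebpd, Cebpe, Cebpg and Ddit3. Members were all probe sets annotated to 1 of these genes alone. Of 45037 probe sets on the array, 10 met this rule and covered 5 of the 6 genes, out of 18193 genes in all. Cebpe was named by none of the probe sets in the annotation used here, and it is not analysed here. Neutrophils carrying surface CD11b and Ly6G with little Ly6C had been sorted from the marrow of Jdp2-/- and wild-type mice. The strain label reads C57BL/6 /129/J mixed background for both genotypes. Each genotype was represented by 1 Affymetrix array of total RNA, 2 in all. No source used here gives the age of the mice, the number of mice behind an array or the deleted part of Jdp2. With 1 array per group there was no spread between replicates and no difference has a p-value, and this small number of arrays sets the precision.

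C/EBP proteins are leucine-zipper transcription factors that bind DNA as dimers with each other and with zipper proteins of the AP-1 and ATF group. In the neutrophil lineage they are known to act in sequence. C/EBP alpha commits progenitors to the granulocyte path, C/EBP epsilon drives the late stages at which secondary granules are filled, and C/EBP beta and C/EBP delta act in inflammation and in emergency granulopoiesis, the rapid output of neutrophils during infection. C/EBP gamma has no activating domain of its own, and the product of Ddit3, called CHOP, is a stress-induced member whose altered basic region keeps it from the usual C/EBP site. Jdp2, the gene named as deleted, encodes another zipper protein that binds AP-1 and cyclic AMP response elements and can pair with CHOP. The comparison asks how transcripts of this family stood in neutrophils labelled as lacking Jdp2.

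Sequence upstream of 4 members was found in the RefSeq promoter table of build GRCm38.p6, which holds no entry for Cebpd and Cebpe. Shown here are the 250 bases before the annotated start of the 3 members in which a searched motif occurred. Capitals mark the matches.
Cebpa (chr7:35119043-35119292, plus strand): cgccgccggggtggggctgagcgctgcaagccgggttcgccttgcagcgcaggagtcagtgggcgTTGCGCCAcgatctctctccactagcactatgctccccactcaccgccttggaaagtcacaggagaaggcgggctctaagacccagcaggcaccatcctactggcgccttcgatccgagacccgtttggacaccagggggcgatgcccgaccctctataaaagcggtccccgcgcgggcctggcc
Cebpb (chr2:167688665-167688914, plus strand): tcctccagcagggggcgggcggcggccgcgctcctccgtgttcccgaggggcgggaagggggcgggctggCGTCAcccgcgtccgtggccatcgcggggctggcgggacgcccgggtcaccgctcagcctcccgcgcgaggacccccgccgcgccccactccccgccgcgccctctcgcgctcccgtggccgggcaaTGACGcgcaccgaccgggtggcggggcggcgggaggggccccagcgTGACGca
Ddit3 (chr10:127290543-127290792, plus strand): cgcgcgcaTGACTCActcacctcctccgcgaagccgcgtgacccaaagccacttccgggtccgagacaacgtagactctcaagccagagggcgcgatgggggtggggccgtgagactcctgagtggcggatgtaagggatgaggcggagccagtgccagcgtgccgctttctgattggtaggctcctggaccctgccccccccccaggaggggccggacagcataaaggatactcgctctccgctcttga
The Ddit3 window held the AP-1 element TGACTCA, 236 to 242 bases before the start. The motif searched, TGANTCA, which is its own reverse complement, was present in 6.75% of all 32851 windows of this length. The Cebpa window held TTGCGCCA, 178 to 185 bases before the start. It matches TTGCGNNA (reverse complement TNNCGCAA), a variant of the C/EBP core that occurred in 2.94% of windows. The Cebpb window held 3 matches to TGACG or its reverse complement CGTCA, a short form of the cyclic AMP response element, at 176 to 180, 49 to 53 and 3 to 7 bases before the start. This short motif was present in 17.8% of windows. The Cebpg window held none of the motifs searched. Neither the C/EBP core TTGCNNAA (reverse complement TTNNGCAA, 9.56% of windows), which overlaps TTGCGNNA in part, nor the C/EBP-ATF composite TGATGCAA (reverse complement TTGCATCA, 0.791%) was found in the 4 windows. The motifs were chosen with the sequences in view, so the shares do not measure how unusual a match is. A match describes these letters only. Binding was not measured.

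The targeted gene did not separate the arrays as labelled. The stronger Jdp2 probe set, 1450350_a_at, read 12.38 on the array labelled knockout and 12.00 on the array labelled wild type, on the log2 signal scale used throughout. The weaker one, 1424972_at, read 5.40 and 5.24, under the median of each array. No source used here says whether these probes lie in the deleted part. Probes outside it cannot check the labels, so directions refer to the arrays by their labels. Of 12 neutrophil markers, Ly6g and Retnlg had no annotated probe set, and the other 10 were past the level filter, which asks that the higher of a gene's 2 values reach its array's median. The differences of these 10 ran from -0.43 to 0.24. Monocyte and macrophage markers differed between the arrays. Of 16 such genes past the filter (18 listed), 11 passed 2-fold upward in the knockout-labelled array, beside 3.06% of all genes past the filter. The median difference of the 16 was 1.17, and their summed linear signal was 14830 against 11262. Among the 11, F13a1, Ms4a6c, C1qa, C1qc and Fcgr1 were under the median of the wild-type array and passed the filter only through the other array. With the weak value raised to that median, F13a1 gave 3.25-fold, and the other named genes 1.71-fold to 1.78-fold. C/EBP beta and C/EBP delta are also made by monocytes. The part of these markers in any C/EBP value was not tested, and in bulk RNA fewer cells of a type and less RNA per cell cannot be told apart.

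All 5 measured C/EBP genes gave strong signal on both arrays, and none differed by 2-fold. Cebpa and Cebpg read about 1.3-fold lower in the array labelled knockout. Ddit3 (-0.19 and -0.72) and Cebpd (-0.07 and -0.35) read lower by amounts that depended on the probe set. Both Cebpb probe sets were close to equal. Of the 10 probe sets, 8 read lower in the array labelled knockout, and 8 lay above the 75th percentile of both arrays. None of the 10 was past 2-fold in either direction, beside 5.14% of the 19604 named probe sets past the filter. By gene, 0 of 5 were past 2-fold, beside 5.39% of 11168 genes (3.06% higher and 2.33% lower) and 3.13% of the 6298 genes past a filter at the 75th percentile. For 5 genes that share comes to less than 1 gene, so a count of 0 does not set the family apart. The median difference of the 5 genes, -0.19, stood beside -0.04 for all genes past the filter. Of the 5, 4 lay below 0, beside 55.1% of all genes past the filter and 58.8% of those past the 75th percentile.

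**Figure D1:**
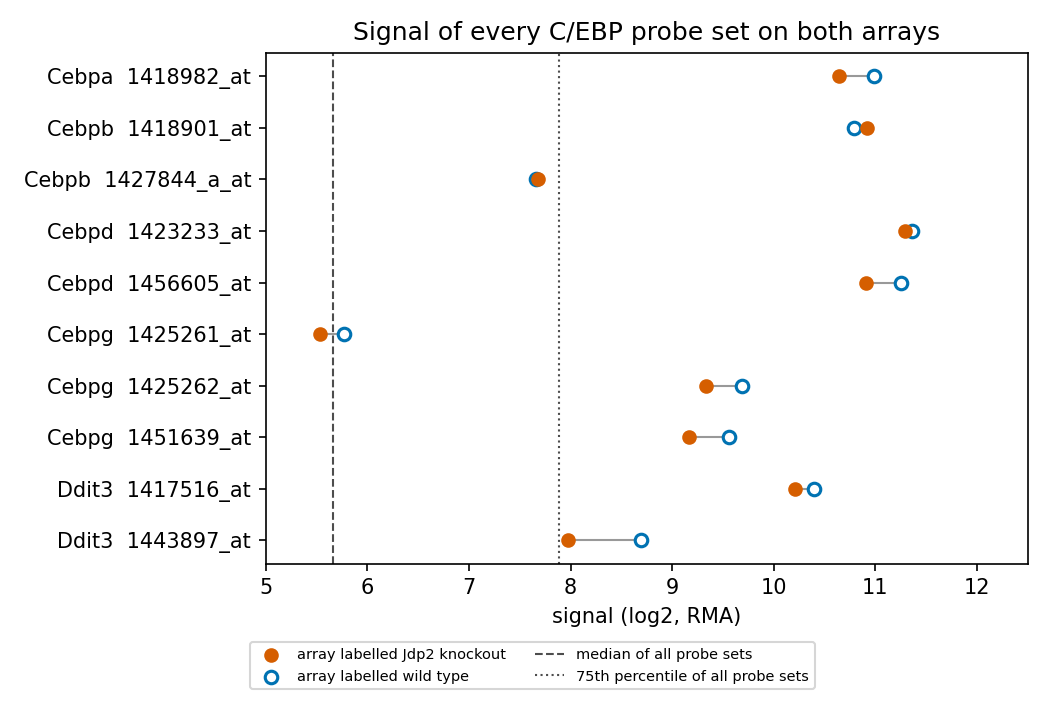
Signal (log2) of each of the 10 C/EBP probe sets on the array labelled Jdp2 knockout (filled) and on the array labelled wild type (open), 1 array each, with no error bars since there are no replicates. Dashed and dotted lines mark the median and the 75th percentile of all probe sets, and the widest gap is that of the second Ddit3 probe set, 7.98 against 8.69.

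Cebpa, the commitment factor, was measured by 1 probe set, 1418982_at. It read 10.64 on the array labelled knockout and 10.99 on the array labelled wild type, at the 92.1st and 93.6th percentile of the probe sets of each array. The difference was -0.35, or 1.27-fold lower in the array labelled knockout. Of all genes past the filter, 18.8% had a lower difference, and 34.9% differed by at least this much in either direction. The Cebpa value therefore lay inside the common range of differences between these arrays, and no second probe set measured it.

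Cebpg, whose product pairs with other zipper proteins such as ATF4, was measured by 3 probe sets that all read lower in the array labelled knockout. Probe set 1425262_at read 9.33 against 9.69, a difference of -0.36. Probe set 1451639_at read 9.17 against 9.56, a difference of -0.39. The third, 1425261_at, read 5.54 against 5.77, close to the median of each array, with a difference of -0.23. The SD over the 3 differences was 0.08, which is less than the typical disagreement between probe sets of a gene on these arrays (median SD 0.22 over 4867 genes with at least 2 passing probe sets). The probe sets share the RNA of the same arrays and a common source transcript, so this spread is technical and says nothing of mice. Of all genes past the filter, 34.2% differed by at least the 0.36 of the strongest probe set.

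Cebpa and Cebpg are neighbours in the mouse genome, with no other named protein-coding gene between them in the gene table. With the strongest probe set of each gene, their differences, -0.35 and -0.36, were 0.0074 apart. The Cebpg probe sets ran from -0.39 to -0.23, and the median SD between probe sets of a gene was 0.22. The small gap therefore depends on the probe set used and lies far below that SD. Whether the position of these genes bears on their values was not tested.

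Cebpb, the factor of emergency granulopoiesis, had 2 probe sets. Probe set 1418901_at read 10.92 on the array labelled knockout and 10.79 on the wild-type array, a difference of 0.12. Probe set 1427844_a_at read 7.68 and 7.67, a difference of 0.02. Cebpb was the only measured member with differences above 0, and 71.7% of genes past the filter differed by at least as much as its stronger probe set. Its messenger RNA is translated into a long activating and a short inhibitory protein, and an array value does not separate them. Set against Cebpb on the same arrays, Cebpa shifted by -0.47 and Cebpg by -0.48, which shows unequal change only.

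Cebpd, an acute-phase factor that rises late in granulocyte maturation, gave probe sets that disagreed in size. Probe set 1423233_at read 11.29 against 11.36, a difference of -0.07, at about the 95th percentile of both arrays (94.9 and 95.04). Probe set 1456605_at read 10.91 against 11.26, a difference of -0.35. Their mean was -0.21 with an SD of 0.20. The annotated Cebpd gene overlaps Spidr, and the strand and position of the probes were not checked.

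Ddit3, encoding CHOP, showed the largest disagreement. Probe set 1417516_at read 10.21 on the array labelled knockout and 10.40 on the wild-type array, a difference of -0.19. Probe set 1443897_at read 7.98 and 8.69, a difference of -0.72 or 1.65-fold lower, and 6.24% of the named probe sets past the filter had a lower difference. The SD of the pair was 0.38. Both pointed the same way, and their mean was -0.45, so the size of the Ddit3 difference rests on which probe set is used. Ddit3 overlaps its neighbours Mbd6 and Mars1 in the gene table, and it is not known here whether the second probe set reads Ddit3 alone.

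**Figure D2:**
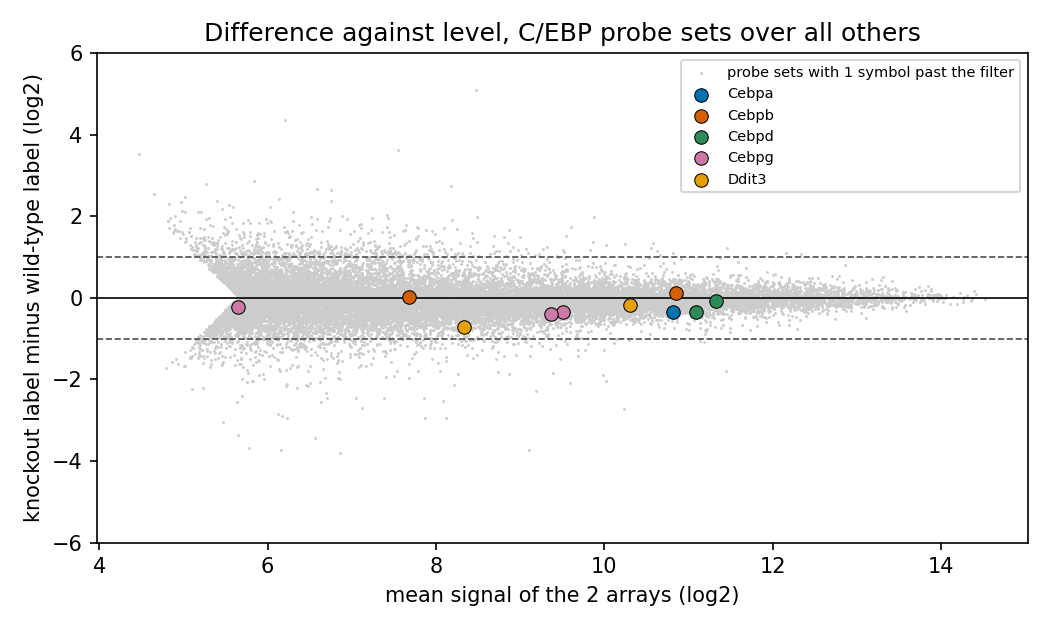
Difference between the arrays (log2, knockout label minus wild-type label) against mean log2 signal for the 19604 named probe sets past the filter (grey) and the 10 C/EBP probe sets (coloured by gene). Dashed lines mark 2-fold, and all C/EBP points lie between them, from -0.72 to 0.12. The empty wedge at the left edge comes from the level filter.

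Genes that pair with C/EBP proteins or control their amount showed no 2-fold difference among the 20 of 24 past the filter. Over all genes past the filter 5.39% passed 2-fold, about 1 gene in 20, so this count does not set the list apart. The median difference was 0.0053, with 10 genes higher and 10 lower, and it lay below 0 after loess, after median centring and without shared probe sets. Id2, an inhibitor of helix-loop-helix factors, was highest at 0.81 (13.27 against 12.45), but its 3 probe sets ran from -0.36 to 1.07 and it stood at -0.36 without shared probe sets. Hlf, a zipper factor of the PAR group, read 7.87 against 8.48, a difference of -0.61. Siah2, a ubiquitin ligase gene, differed by -1.28 at 3.95 against 5.23, under the median of both arrays, and another probe set of it stood at 0.73. Batf2, also under both medians, differed by 0.54. Chosen after their values were seen, Trib1, whose product targets C/EBP alpha for destruction, read 12.04 against 11.75 (0.29, other probe set 0.94), and Atf4, a dimer partner of C/EBP gamma and CHOP, read 12.03 against 12.07 (-0.05).

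The early granulopoiesis list, genes of the stage at which C/EBP alpha acts, held the largest differences of the lists, at primary granule genes. Of 11 genes, all past the filter, 6 passed 2-fold upward in the knockout-labelled array and 0 passed it downward, with a median difference of 1.04. Over all genes past the filter, 3.06% passed it upward and 2.33% downward. The count of 6 was 5 with the mean of all probe sets or the filter at the 75th percentile, and 4 with the filter on both values. Mpo, encoding myeloperoxidase, read 11.02 against 5.93, while Cebpa, which is known to act on early granule genes, read 10.64 against 10.99 on the same arrays. Elane read 9.36 against 5.75, Ctsg 8.38 against 4.02 and Prtn3 7.27 against 4.41, the 3 being serine proteases of primary granules. On the wild-type side Ctsg and Prtn3 were under the array median, and with that side raised to it they gave 6.64-fold and 3.06-fold. Elane and Mpo were little above it there, at the 51.5th and 54.4th percentile. Each of Mpo, Elane, Ctsg and Prtn3 had 1 probe set. Ms4a3, a membrane protein gene and no granule enzyme, differed by 1.04. Ctsc, whose product activates these proteases, differed by 1.05, but its passing probe sets ran from -0.61 to 1.05 and the mean of all was 0.48. The other 5 genes lay between -0.30 and -0.0011. Among them, named after its value was seen, Csf3r, the G-CSF receptor gene and a known C/EBP alpha target, read 12.24 against 12.54. With a filter on both values, which removes Ctsg and Prtn3, the list's median was -0.0011. Monocyte and macrophage markers (11 of 16 at least 2-fold higher, some from weak wild-type values) were higher in the same array as these granule genes. So were platelet markers (3 of 6, median 0.93) and dendritic cell markers (2 of 5, median 0.97). Medians were also above 0 for eosinophil, basophil and mast cell (0.78, 2 genes), B cell (0.48) and T and NK cell markers (0.25). They were below 0 for stem and progenitor (-0.13, 1 of 7 at least 2-fold higher), stromal and endothelial (-0.17) and erythroid markers (-0.71, 2 genes). The part of any of these cell types in the granule values was not tested.

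**Figure D3:**
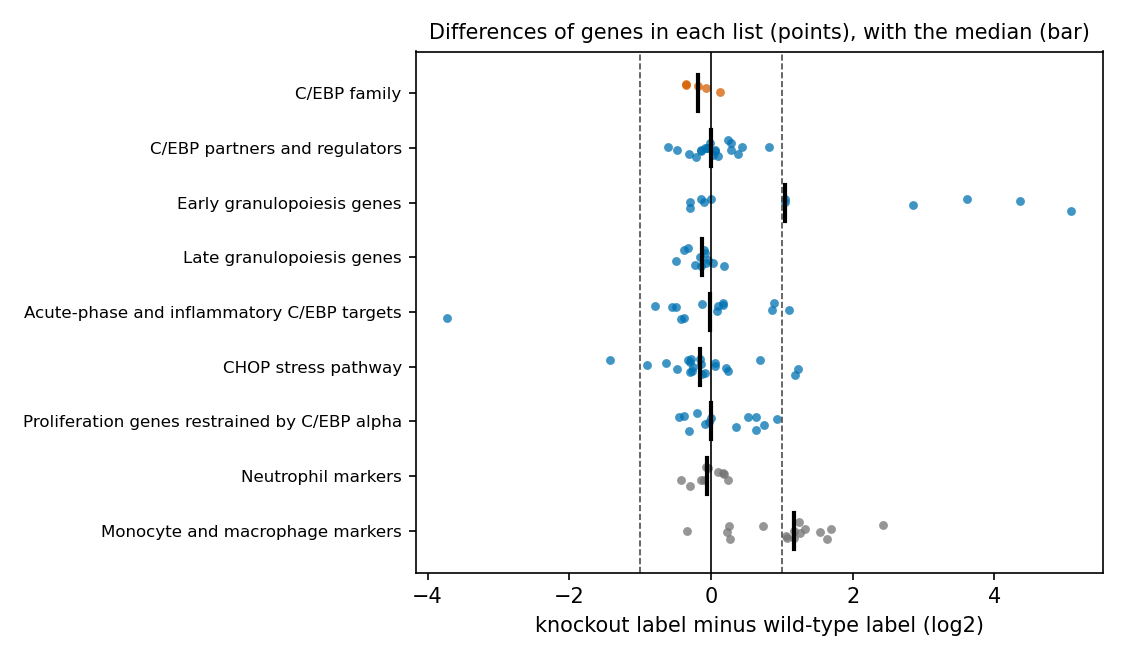
Difference between the arrays (log2) for each gene past the filter in the C/EBP family, the 6 related lists and 2 marker lists. Points are genes, bars are list medians and dashed lines mark 2-fold. The C/EBP genes lie between -0.36 and 0.12, the early granulopoiesis genes reach 5.09, and Orm1 stands alone at -3.72.

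Late granulopoiesis genes, whose products fill secondary and gelatinase granules at the stage of C/EBP epsilon, stayed within 2-fold in all 12 cases. Since 3.13% of genes past the 75th percentile filter passed 2-fold, a count of 0 does not set the list apart. Their median difference was -0.13, beside -0.04 for all genes, and 10 of 12 lay below 0, beside 55.1% of all genes and 58.8% of those past the 75th percentile. Chil1 differed by -0.49, Olfm4 by -0.38, Itgb2l by -0.33 and Cd177 by -0.22. Some list genes not among these 4, such as Camp at 14.51 and 14.54 (named after its value was seen), read near the array maxima of 14.56 and 14.54, where differences can be compressed. The C/EBP core TTGCNNAA occurred in the upstream window of 4 of the 10 list genes found in the promoter table, namely Lcn2, Ltf, Mmp8 and Ngp. Since the list was written from genes known to depend on this family, that count, beside 9.56% of all windows, is no independent evidence. Ngp, encoding neutrophilic granule protein, held 2 matches, at 131 to 138 and 4 to 11 bases before its annotated start, and is shown for that reason with the matches in capitals.
Ngp (chr9:110419558-110419807, plus strand, GRCm38.p6): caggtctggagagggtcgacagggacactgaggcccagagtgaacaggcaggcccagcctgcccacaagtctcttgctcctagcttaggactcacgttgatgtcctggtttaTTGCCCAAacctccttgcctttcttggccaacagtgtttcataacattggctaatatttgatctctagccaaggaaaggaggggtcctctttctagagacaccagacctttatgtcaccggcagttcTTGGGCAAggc
Named after its value was seen, Ngp read 13.97 on the array labelled knockout and 13.80 on the wild-type array, a difference of 0.18.

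Acute-phase and inflammatory genes known as targets of C/EBP beta and C/EBP delta went both ways. Of 14 past the filter (21 listed), 1 was at least 2-fold higher and 1 at least 2-fold lower, beside 3.06% and 2.33% of all genes past the filter, so these counts do not set the list apart. The median difference was -0.02, and it lay above 0 with the filter at the 75th percentile (0.087), the filter on both values or the mean of all probe sets (0.082 each). Orm1, encoding the acute-phase alpha-1-acid glycoprotein, read 7.24 on the array labelled knockout and 10.96 on the array labelled wild type, 13.2-fold lower. Orm1 had 1 probe set. On the same arrays the stronger probe sets of Cebpb and Cebpd differed by 0.12 and -0.07, and their second probe sets by 0.02 and -0.35. Cxcl2, a neutrophil-attracting chemokine gene, read 12.71 against 11.60, a difference of 1.11, and the monocyte chemokine gene Ccl2 read 8.28 against 7.38, a difference of 0.90. Il6 read 3.08 against 3.98, under the median of both arrays. The part of the higher monocyte and macrophage markers in the chemokine values was not tested. In the upstream windows, TTGCNNAA occurred in 8 of 17 list genes, namely C3, Il6, Orm2, Ptgs2, S100a9, Saa1, Saa2 and Saa3, beside 9.56% of all windows. This list too was written from known C/EBP targets and is no independent evidence.

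The pathway to CHOP runs from kinases that sense stress through ATF4 to CHOP and its targets. The list written around it also holds Ern1, Atf6, Xbp1 and Hspa5, genes of other branches of the stress response. This wider list showed mostly small differences, more of them below 0 than above. Of 21 genes past the filter (22 listed), 14 lay below 0 (66.7%, beside 55.1% of all genes), 2 were at least 2-fold higher and 1 was at least 2-fold lower, beside 3.06% and 2.33% of all genes. The median difference was -0.16. Atf3, a stress-induced zipper factor, read 9.66 against 8.48, a difference of 1.18, and Ddit4, an inhibitor of mTOR signalling, read 12.07 against 10.85, a difference of 1.22. Atf5 read 4.57 against 5.99, a difference of -1.42 that came to 1.25-fold with the weak value raised to the array median, and it was not past the filter when both values had to pass. Asns, the asparagine synthetase gene activated by ATF4, read 9.91 on the array labelled wild type, with a difference of -0.90 on both of its probe sets. Chosen after their values were seen, Chac1 and Trib3 differed by -0.63 and -0.48, and the probe sets of Ddit3 itself by -0.19 and -0.72. Of the 21 list genes 7 lay above 0, Atf3 and Ddit4 among them, so Chac1 and Trib3 do not stand for the list. The C/EBP-ATF composite TGATGCAA was found upstream of 3 of 19 list genes in the promoter table (0.791% of all windows), Atf3, Chac1 and Slc7a11. This list was written from known pathway genes and the motif was chosen with the sequences in view, so that count is no independent evidence. Atf3 and Chac1 went in different directions (1.18 and -0.63), and the 2 probe sets of Slc7a11 stood at -0.08 and 0.26.

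A list of proliferation genes was taken because C/EBP alpha is known to hold back proliferation. Whether it acts on each of these transcripts was not tested. The list showed no 2-fold difference among the 13 of 14 past the filter, and its median was -0.0038. Both values also count Cdkn1a, which encodes a cell-cycle inhibitor and does not drive proliferation. Named after its value was seen, it read 7.05 against 6.52, a difference of 0.53. With 5.39% of all genes past 2-fold, a count of 0 of 13 does not set the list apart. Mcm3 reached 2-fold after quantile normalisation or loess, and the median lay above 0 under both. The median came to 0.27 with the mean of all probe sets and to 0.57 without shared probe sets, so it depends on the probe sets used. The replication helicase genes Mcm3 and Mcm6 differed by 0.93 and 0.75, thymidylate synthase Tyms by 0.64 and cyclin E2 Ccne2 by 0.63. The factors E2f1, E2f2 and E2f3, named after their values were seen, went the other way, at -0.38, -0.31 and -0.45. Tyms came to 0.09 over its 4 probe sets.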

How the data were processed

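The deposited values are log2 probe set summaries from RMA, as the submitters' processing notes state. No source used here gives its version or settings. Such summaries have no detection call, and weak ones contain background. Of 45101 probe sets, 64 controls were left out. Genes were named through the platform annotation and updated by Entrez identifier against the GRCm38.p6 gene table (34741 of 34945 probe sets with 1 symbol matched; 932 had several and 9160 were unlisted). Each gene took the values of its brightest probe set, by the mean of both arrays. It passed the level filter when the higher value reached its array's median, which left 11168 genes. With 1 array per group, a difference of at least 2-fold was counted and nothing was tested. Differences are knockout label minus wild-type label.

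Members and lists were chosen with earlier results of these data known. Named genes were all members, Jdp2, list genes past the filter and 2-fold, and up to 4 genes per list with the largest absolute difference. Motifs were chosen with the sequences in view. The counting was tested on simulated shifts. Alternatives were 3 filters, 3 scalings, 2 probe set rules and 2 fold limits. Python 3.11.15, pandas 2.3.3 and statsmodels 0.14.6 were used.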

Additional observations from a re-analysis of the deposited data

How the results depend on the processing

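No paired analysis was possible because each group has 1 array. The 5 member differences kept their sign under all 3 scalings and both probe set rules (25 of 25 values), and 24 moved by less than 0.22, the median SD between probe sets of a gene. The exception was Ddit3, at -0.45 with the mean of all probe sets. Part of this agreement was fixed in advance. Leaving out shared probe sets changed no member value, and Cebpa has 1 probe set, so its mean was the same value. Median centring moved every gene by the same -0.016. Cebpa ran from -0.37 to -0.31, Cebpg from -0.37 to -0.28, Cebpd from -0.21 to -0.04 and Cebpb from 0.07 to 0.16. No member was past 1.5-fold, 2-fold or 3-fold on its strongest probe set. Scaling moved the median of all genes by at most 0.03.

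Among the lists, the early granulopoiesis median of 1.04 came to 0.52 with the filter at the 75th percentile, to 0.48 with the mean of all probe sets and to -0.0011 with the filter on both values, where fewer genes entered. The 1 lower CHOP pathway gene, Atf5, was lost (0) with the filter at the 75th percentile and with that on both values. Without a filter 1 partner gene, Siah2, was at least 2-fold lower. After quantile normalisation and after loess 1 proliferation gene, Mcm3, reached 2-fold. The proliferation median came to 0.27 with the mean of all probe sets and to 0.57 without shared probe sets. It was 0.06 after loess and after quantile normalisation, and 0.18 without a filter. The partner median of 0.0053 turned to -0.0049 after loess, -0.011 with median centring and -0.045 without shared probe sets. The acute-phase median of -0.02 turned to 0.087 with the filter at the 75th percentile and to 0.082 with that on both values or the probe set mean. Over all genes, 342 higher and 260 lower genes became 110 and 87 with the filter at the 75th percentile, 184 and 145 with that on both values, and 183 and 171 when a gene's probe sets were averaged. At 1.5-fold they were 948 and 989, and at 3-fold 71 and 68.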
